A study of Homo sapiens with 4 samples.

Results

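The genes described here encode the subunits of the BAF complexes, the mammalian SWI/SNF chromatin remodellers. The list was set by gene name: 31 genes, of 60671 genes in the deposited matrices, that encode the ATPases, the shared core, the subunits particular to each form of the complex, and the BCL11 proteins that associate with it. All 31 were detected in both libraries. A gene was called measured where at least 1 library had it at 5 CPM or above (CPM are UMIs scaled so that every library has the same total), which held for 26 of the 31. SMARCA2, SMARCD3, ACTL6B, DPF1 and DPF3 stayed below that level in both libraries and are given by their counts.

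The ectoderm library came from human pluripotent stem cells carried through an induction towards ectoderm, and the hPSC library from pluripotent cells of the same screen. Cells of both groups carried a lentiviral guide construct (a guide RNA, EGFP behind the EF1α promoter and a random barcode 22 nt long that marks the guide) and a second lentivirus with Cas9 and mCherry, were sorted on fluorescence and recovered for 1 week. The labels repeat one protocol text, with the induction in it, for both groups, so the sample titles set the groups. The labelled line is H9, an established human embryonic stem cell line, and in a check of expression against it 2 of 2 transcriptome libraries did not match the label.

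Each group was 1 single-cell 3′ library, of 16360 ectoderm cells with 91249888 UMIs and 15326 hPSC cells with 83246015 UMIs. The median cell held 4499 UMIs in ectoderm and 4807.5 in hPSC, and 78 cell barcodes occurred in both libraries. A single library per group leaves no replicate, no test and no p-value, and every interval below covers counting error only. State, guide pool and culture cannot be told apart. Of the guides, 0 of 80 ectoderm targets and 0 of 113 hPSC targets named a BAF subunit gene. The hPSC amplicon table holds 1048575 reads and may be part of a longer one, so its count covers the reads in it. The 8 markers of neural ectoderm progenitors summed to 1371 CPM in ectoderm against 271 CPM in hPSC, although PAX6 stood at 1.19 CPM in ectoderm against 0.216 CPM in hPSC. The 8 pluripotency markers summed to 2735 CPM in ectoderm against 3337 CPM in hPSC, and they did not go one way. NANOG stood at 11.6 CPM in ectoderm against 178 CPM in hPSC and POU5F1 at 485 CPM in ectoderm against 1155 CPM in hPSC, while LIN28A stood at 956 CPM in ectoderm against 517 CPM in hPSC and UTF1 and DNMT3B were also higher in ectoderm. The 9 neuron markers summed to 82.4 CPM in ectoderm against 146 CPM in hPSC, the 5 neural crest markers to 57.0 CPM in ectoderm against 39.2 CPM in hPSC, and the 4 surface ectoderm markers to 1.03 CPM in ectoderm against 0.360 CPM in hPSC, with KRT5 and TP63 at 0 in both libraries. The mesoderm list summed to 10.8 CPM in ectoderm against 33.98 CPM in hPSC and the mesenchyme list to 20.4 CPM in ectoderm against 28.6 CPM in hPSC, and the lists for endoderm and for endothelial and blood cells to at most 1.17 CPM in either library.

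BAF complexes use the energy of ATP to slide or evict nucleosomes and so open enhancers and promoters. Each complex holds a single ATPase, SMARCA4 or SMARCA2, on a core of shared subunits, and 3 forms are told apart by further subunits: canonical BAF has ARID1A or ARID1B and a DPF protein, PBAF has ARID2, PBRM1, BRD7 and PHF10, and non-canonical BAF has BICRA or BICRAL and BRD9. During mammalian neural development several positions exchange paralogues. Studied chiefly in mouse, neural progenitors use ACTL6A, SS18 and PHF10 or DPF2, and post-mitotic neurons use ACTL6B, SS18L1 and DPF1 or DPF3.

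Of the 26 measured genes, 6 reached a log2 ratio of ectoderm over hPSC of at least 0.5 (23.1%), against 13.3% of the 10769 genes measured in these libraries: ARID1B, ARID2, SMARCC2, ARID1A, BCL7A and BRD7. At −0.5 or below stood 2 genes, ACTL6A and BCL11B (7.69%), against 14.9% of all measured genes. On GRCh38, by GENCODE v29, the genes higher in ectoderm are ARID1B (chr6:156776020-157210779, plus strand), ARID2 (chr12:45729665-45908040, plus), SMARCC2 (chr12:56162983-56189567, minus), ARID1A (chr1:26693236-26782110, plus), BCL7A (chr12:122019422-122062044, plus) and BRD7 (chr16:50313487-50368934, minus). The lower ones are ACTL6A (chr3:179562880-179588408, plus) and BCL11B (chr14:99169287-99271524, minus). None of the 26 reached 1 in size in either direction, which 3.97% of all measured genes did upwards and 4.85% downwards. The ratio lay above 0 for 21 of the 26 genes (80.8%), against 48.6% of all measured genes, and below 0 for 5 (19.2%), against 51.4%. The median over the 26 was 0.18 with quartiles of 0.14 and 0.34, beside −0.02 with quartiles of −0.31 and 0.29 over all measured genes. Summed without ACTB, which encodes cytoplasmic β-actin and is counted for all its uses, the 31 genes took 176687 UMIs in ectoderm (0.194% of the library) and 134173 in hPSC (0.161%). In sums over a library, more RNA per cell and more expressing cells cannot be told apart.

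**Figure D1:**
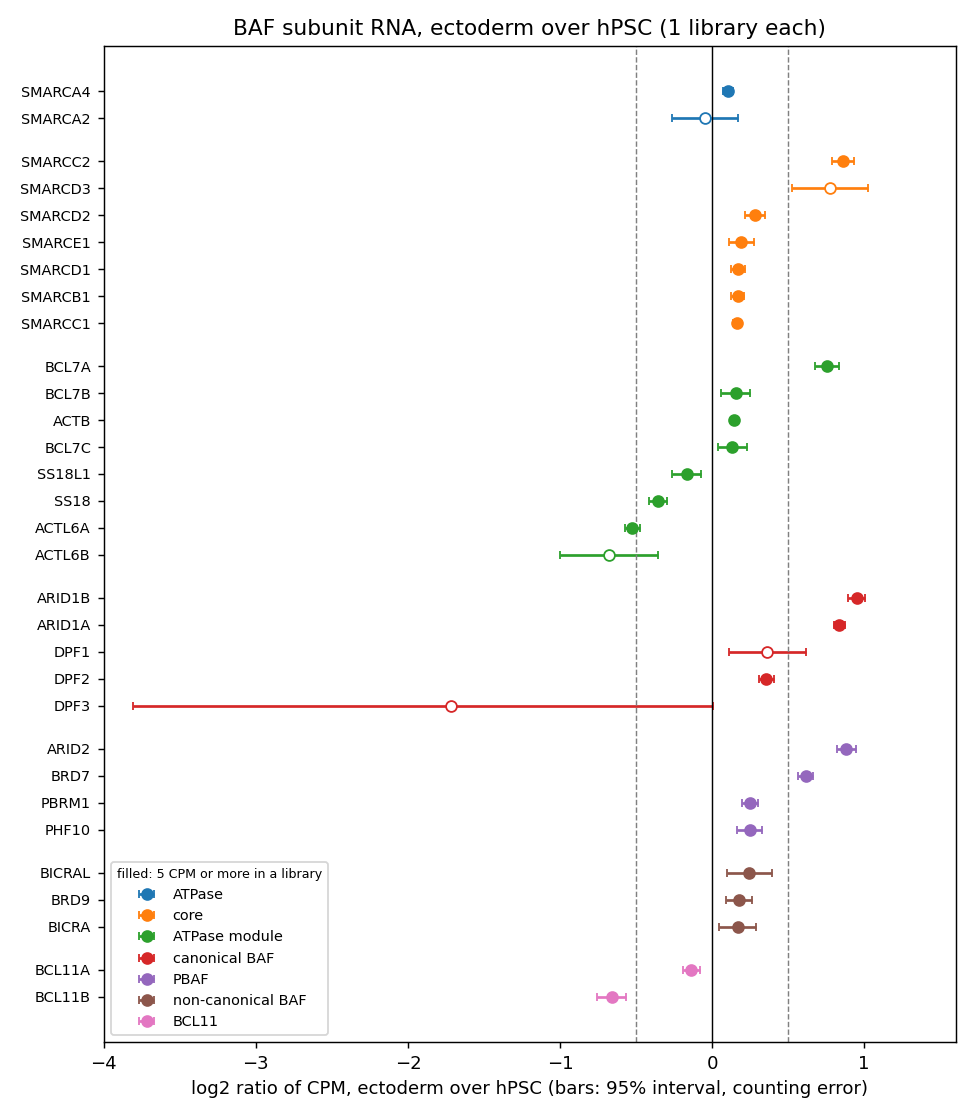
Log2 ratio of CPM, ectoderm over hPSC, for the BAF subunit genes grouped by role, with exact 95% counting intervals; the axis names each gene and the dashed lines stand at 0.5 and −0.5. ARID1B at 0.95, ARID2 at 0.88, SMARCC2 at 0.86 and ARID1A at 0.84 lie farthest to the higher side among the measured genes, and BCL11B at −0.66 lies farthest to the lower side.

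Promoters are shown for 3 genes that were higher in ectoderm and for BCL11B, which was lower, because these 4 genes have windows in the RefSeq promoter table and lie towards the ends of the order. The table (GRCh38.p14) held 47 windows of 300 bases, from 250 before to 50 after a start, for 26 of the 31 genes. The genes with no window there are SMARCC1, SMARCC2, ARID2, ACTL6A and ACTB. Capitals mark GGGCGG or its reverse complement CCGCCC, the core of the GC box, searched on both strands. Each sequence is 5′ to 3′ on the strand of its gene: ARID1A on the plus strand at chr1:26695765-26696064, ARID1B on the plus strand at chr6:156777128-156777427 (1 of its 2 windows), BCL7A on the plus strand at chr12:122021634-122021933 and BCL11B on the minus strand at chr14:99272148-99272447.
ARID1A: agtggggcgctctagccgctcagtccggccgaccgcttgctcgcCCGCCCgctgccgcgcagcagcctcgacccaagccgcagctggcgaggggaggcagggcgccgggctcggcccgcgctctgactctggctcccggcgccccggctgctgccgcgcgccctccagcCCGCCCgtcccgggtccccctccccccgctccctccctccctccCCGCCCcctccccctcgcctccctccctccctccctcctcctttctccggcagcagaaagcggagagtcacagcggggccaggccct
ARID1B: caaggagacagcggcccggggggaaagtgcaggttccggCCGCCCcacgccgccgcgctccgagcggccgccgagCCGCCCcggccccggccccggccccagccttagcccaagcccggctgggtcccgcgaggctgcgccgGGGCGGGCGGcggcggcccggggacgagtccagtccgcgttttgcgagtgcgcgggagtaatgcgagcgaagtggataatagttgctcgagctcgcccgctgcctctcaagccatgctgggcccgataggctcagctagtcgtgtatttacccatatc
BCL7A: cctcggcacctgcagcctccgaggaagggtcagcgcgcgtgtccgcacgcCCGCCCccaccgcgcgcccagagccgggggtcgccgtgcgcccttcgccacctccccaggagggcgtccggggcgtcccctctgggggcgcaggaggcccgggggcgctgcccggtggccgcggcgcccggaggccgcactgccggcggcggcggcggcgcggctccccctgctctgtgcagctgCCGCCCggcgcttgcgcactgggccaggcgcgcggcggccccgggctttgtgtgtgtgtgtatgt
BCL11B: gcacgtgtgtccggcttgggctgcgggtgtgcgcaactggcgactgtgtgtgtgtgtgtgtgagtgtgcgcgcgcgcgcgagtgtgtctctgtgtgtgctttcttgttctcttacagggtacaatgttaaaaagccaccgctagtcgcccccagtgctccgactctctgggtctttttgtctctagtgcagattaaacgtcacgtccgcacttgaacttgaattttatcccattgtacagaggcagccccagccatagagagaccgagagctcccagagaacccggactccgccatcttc
The ARID1A window held 3 such matches, the ARID1B window 4, of which 2 overlap in one run, the BCL7A window 2 and the BCL11B window 0. The BCL11B window lies wholly outside the GENCODE v29 span of that gene, which ends at chr14:99271524. GC content was 78% for ARID1A, 72% for ARID1B, 80.3% for BCL7A and 55.7% for BCL11B, and the 4 windows held 33, 39, 44 and 20 CpG dinucleotides in that order. Of the 2 ARID1B windows the one with most CpG dinucleotides was printed, so its values come from a window picked on that count. Among all windows of the BAF genes, 35 of 47 (74.5%) held GGGCGG on either strand, against 45.0% of the 35116 windows in the table. Their median GC content was 67.0%, against 58.7%, with a median of 30 CpG against 14. CCAAT occurred in 29.8% of the BAF windows and in 34.6% of all windows, and TATAAA in 6.38% of the BAF windows and 11.5% of all, both searched on both strands. A match is a run of letters in a window and says nothing about binding.

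Over all cells neither ATPase gene reached 0.5 in size. SMARCA4, the main ATPase of pluripotent cells, stood at 180 CPM in ectoderm against 168 CPM in hPSC, a log2 ratio of 0.10 (95% interval 0.07 to 0.14). SMARCA2, its alternative, had 360 UMIs in ectoderm (3.95 CPM) and 339 in hPSC (4.07 CPM), with a log2 ratio of −0.05 (−0.26 to 0.17). SMARCA2 made up 2.14% of the UMIs of the pair in ectoderm and 2.37% in hPSC. The log2 odds ratio of −0.15 had an interval of −0.37 to 0.07, which includes 0. Within G1 cells, on 6 SMARCA2 UMIs in ectoderm and 16 in hPSC, it was −1.61 (−3.26 to −0.16), and in cells with a non-targeting guide it was 1.43 (−1.20 to 4.84).

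In the core, 1 scaffold gene stood apart. SMARCC2, which pairs with SMARCC1 as the scaffold of the complex, had 4598 UMIs in ectoderm (50.4 CPM) and 2311 in hPSC (27.8 CPM), a log2 ratio of 0.86 (0.79 to 0.93). SMARCC1, the form that dominates in embryonic stem cells, stood at 398 CPM in ectoderm against 356 CPM in hPSC, a log2 ratio of 0.16. The share of SMARCC2 in the UMIs of the pair was thus 11.2% in ectoderm and 7.24% in hPSC, with a log2 odds ratio of 0.70 (0.62 to 0.78). SMARCC2 overlaps MYL6 on the opposite strand, which had 73394 UMIs in ectoderm and 61129 in hPSC. The strand setting of the counting is not given in the sources used here, and the part of MYL6 reads in the SMARCC2 count was not tested. The remaining core genes kept within 0.3 of 0: SMARCB1, the subunit lost in rhabdoid tumours, had a log2 ratio of 0.17, SMARCE1 of 0.19, SMARCD1 of 0.17 and SMARCD2 of 0.28. SMARCD3, the family member known from heart muscle and neurons, had 386 UMIs in ectoderm and 206 in hPSC, a log2 ratio of 0.77 (0.53 to 1.02) on a level under 5 CPM in both. Its share of the SMARCD family was 2.94% in ectoderm and 2.01% in hPSC, and its log2 odds ratio against SMARCD1 was 0.60 (0.35 to 0.86). SMARCD3 overlaps CHPF2 (280 UMIs in ectoderm, 289 in hPSC) and AC021097.1 (257 in ectoderm, 202 in hPSC) on the opposite strand. Their part in its count was not tested.

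Of the subunits that sit on the ATPase, the actin-related and SS18 ones were lower in ectoderm and BCL7A was higher. ACTL6A, the actin-related subunit of stem and progenitor cells, had 5846 UMIs in ectoderm (64.1 CPM) and 7679 in hPSC (92.2 CPM), a log2 ratio of −0.53 (−0.58 to −0.48). ACTL6B, the neuronal form, had 138 UMIs in ectoderm and 201 in hPSC, a log2 ratio of −0.67 (−0.998 to −0.36). Both were lower in ectoderm, and the share of ACTL6B in the pair was 2.31% in ectoderm and 2.55% in hPSC, with a log2 odds ratio of −0.15 whose interval of −0.48 to 0.17 includes 0. ACTL6A overlaps MRPL47 on the opposite strand (14719 UMIs in ectoderm, 16645 in hPSC), whose part in the count was not tested. SS18, the progenitor form of the next position, stood at 47.5 CPM in ectoderm against 60.7 CPM in hPSC, a log2 ratio of −0.35 (−0.41 to −0.30). Its neuronal paralogue SS18L1, also called CREST, stood at 19.9 CPM in ectoderm against 22.4 CPM in hPSC, a log2 ratio of −0.17 (−0.26 to −0.07). SS18L1 held 29.6% of the pair in ectoderm and 27.0% in hPSC, a log2 odds ratio of 0.19 (0.08 to 0.30).

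BCL7A accounted for the difference within the BCL7 family, whose members are small accessory subunits. BCL7A had 3698 UMIs in ectoderm (40.5 CPM) and 1996 in hPSC (24.0 CPM), a log2 ratio of 0.76 (0.68 to 0.84), while BCL7B and BCL7C had ratios of 0.16 and 0.13. BCL7A thus held 48.1% of the family's UMIs in ectoderm and 37.8% in hPSC. BCL7B held 25.8% in ectoderm and 30.7% in hPSC, and BCL7C 26.0% in ectoderm and 31.5% in hPSC. The log2 odds ratio of BCL7A against BCL7C was 0.62 (0.50 to 0.75), and that of BCL7B against BCL7C was 0.02 (−0.11 to 0.16). ACTB had a log2 ratio of 0.14.

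**Figure D2:**
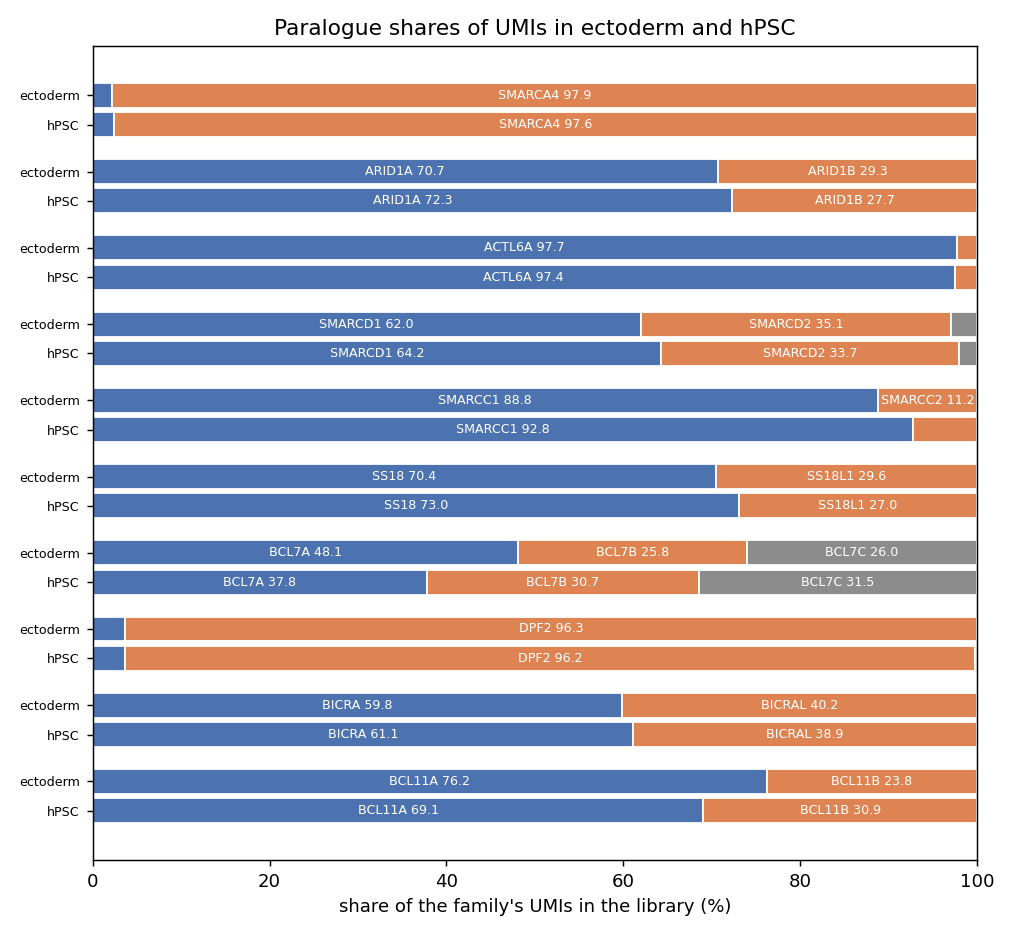
Share of each paralogue in the summed UMIs of its pair or family, in percent, with the ectoderm bar above the hPSC bar; segments run in the order of the names, and those too narrow for a label are SMARCA2, ACTL6B, SMARCD3, DPF1, DPF3 and, in hPSC, SMARCC2. BCL7A holds 48.1% of its family in ectoderm and 37.8% in hPSC, SMARCC2 holds 11.2% and 7.24% of its pair, and BCL11B holds 23.8% in ectoderm and 30.9% in hPSC.

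Both alternative ARID1 subunits of canonical BAF were higher in ectoderm. ARID1A, which targets the complex to enhancers, had 21069 UMIs in ectoderm (231 CPM) and 10762 in hPSC (129 CPM), a log2 ratio of 0.84 (0.80 to 0.87). ARID1B, a gene mutated in Coffin-Siris syndrome, had 8736 UMIs in ectoderm (95.7 CPM) and 4125 in hPSC (49.6 CPM), a log2 ratio of 0.95 (0.90 to 1.00). Their balance differed little, with ARID1B at 29.3% of the pair in ectoderm and 27.7% in hPSC and a log2 odds ratio of 0.11 (0.05 to 0.18). DPF2, the double PHD finger protein found in most cell types, stood at 91.4 CPM in ectoderm against 71.5 CPM in hPSC, a log2 ratio of 0.36. DPF1, a neuronal paralogue, had 317 UMIs in ectoderm and 225 in hPSC, and DPF3, the other, had 4 in ectoderm and 12 in hPSC. DPF2 held 96.3% of the family in ectoderm and 96.2% in hPSC, and the log2 odds ratio of DPF1 against DPF2 was 0.01 (−0.25 to 0.26). That of DPF3 against DPF2 was −2.07 (−4.16 to −0.35) and rests on those 16 UMIs.

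PBAF was split. ARID2, its ARID subunit, had 5771 UMIs in ectoderm (63.2 CPM) and 2854 in hPSC (34.3 CPM), a log2 ratio of 0.88 (0.82 to 0.95). BRD7, a bromodomain subunit, stood at 89.3 CPM in ectoderm against 58.3 CPM in hPSC, a log2 ratio of 0.61 (0.56 to 0.67). PBRM1, which carries a row of bromodomains, and PHF10 had lower ratios of 0.25 each, at 69.9 CPM in ectoderm against 58.8 CPM in hPSC for PBRM1 and 30.6 CPM in ectoderm against 25.8 CPM in hPSC for PHF10. In non-canonical BAF, BRD9 had a log2 ratio of 0.18, BICRA of 0.17 and BICRAL of 0.25. BRD9 held 23.0% of the UMIs of the BRD9 and BRD7 pair in ectoderm and 28.8% in hPSC, a log2 odds ratio of −0.44 (−0.54 to −0.33), and BICRAL against BICRA had one of 0.08 (−0.11 to 0.27). BRD7 has 5 annotated pseudogene copies, which together had 107 UMIs in ectoderm and 63 in hPSC.

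Summed by complex, the subunits particular to canonical BAF took 422 CPM in ectoderm against 253 CPM in hPSC, a log2 ratio of 0.74 (0.71 to 0.76). ARID1A and ARID1B together supplied 29805 of the 38469 UMIs of that sum in ectoderm and 14887 of 21073 in hPSC. The subunits of PBAF took 253 CPM in ectoderm against 177 CPM in hPSC, a ratio of 0.51 (0.48 to 0.54). Those of non-canonical BAF took 49.8 CPM in ectoderm against 43.7 CPM in hPSC, a ratio of 0.19 (0.12 to 0.25), so their interval lies below both others. BRD9 overlaps TRIP13 on the opposite strand (1900 UMIs in ectoderm, 2307 in hPSC) and ZDHHC11 on its own (328 in ectoderm, 203 in hPSC). BICRA overlaps AC010331.1 on the opposite strand (444 in ectoderm, 635 in hPSC). In PBAF, PBRM1 likewise overlaps SMIM4 (3389 in ectoderm, 3556 in hPSC) and PHF10 overlaps C6orf120 (1255 in ectoderm, 1309 in hPSC). The part of these overlaps in the sums was not tested. The progenitor subunits ACTL6A, PHF10, SS18 and DPF2 summed to 234 CPM in ectoderm against 250 CPM in hPSC, a ratio of −0.10 (−0.13 to −0.07). That sum joins opposite signs, with ACTL6A at −0.53 and SS18 at −0.35 beside DPF2 at 0.36 and PHF10 at 0.25. The neuronal subunits ACTL6B, SS18L1, DPF1 and DPF3 summed to 24.98 CPM in ectoderm against 27.7 CPM in hPSC, a ratio of −0.15 (−0.23 to −0.06). The neuron markers, of which 4 of 9 were measured, summed lower in ectoderm too, at 82.4 CPM in ectoderm against 146 CPM in hPSC. They did not go one way. SYT1 (39.5 CPM in ectoderm, 81.5 in hPSC), STMN2 (17.6 in ectoderm, 42.9 in hPSC) and RBFOX3 (5.74 in ectoderm, 6.78 in hPSC) were lower. INA was higher, at 17.9 CPM in ectoderm against 13.0 CPM in hPSC. The part of the neuron markers in the subunit sums was not tested. SS18L1 supplied 1820 of the 2279 neuronal-subunit UMIs in ectoderm and 1864 of 2302 in hPSC, and DPF1 had a ratio of the other sign, 0.36 (0.11 to 0.62). In cells of 3000 to 6000 UMIs the neuronal sum had a ratio of −0.05 (−0.19 to 0.08). Within G1 cells alone the ratio was 0.11 (−0.07 to 0.29) for the progenitor subunits and 0.08 (−0.46 to 0.63) for the neuronal ones.

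BCL11A and BCL11B, zinc finger proteins known from blood and forebrain development, were the remaining genes with ratios below 0. BCL11B had 1582 UMIs in ectoderm (17.3 CPM) and 2282 in hPSC (27.4 CPM), a log2 ratio of −0.66 (−0.75 to −0.57). BCL11A stood at 55.6 CPM in ectoderm against 61.2 CPM in hPSC, a ratio of −0.14 (−0.19 to −0.08). BCL11B held 23.8% of the pair in ectoderm and 30.9% in hPSC, a log2 odds ratio of −0.52 (−0.63 to −0.41).

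Shares of cells with a UMI differed in the same direction as the CPM for these genes. After thinning every cell to 2000 UMIs, which kept 16360 ectoderm and 15195 hPSC cells and left out 131 shallower hPSC cells, ARID1A had a UMI in 36.1% of ectoderm and 21.8% of hPSC cells. Without thinning these shares were 64.4% in ectoderm and 46.5% in hPSC. For the thinned cells the shares were 17.0% in ectoderm and 9.11% in hPSC for ARID1B, 12.1% in ectoderm and 6.40% in hPSC for ARID2, and 9.85% in ectoderm and 5.41% in hPSC for SMARCC2. ACTL6A had a UMI in 11.8% of ectoderm and 16.8% of hPSC cells, and BCL11B in 3.38% in ectoderm and 5.36% in hPSC. ACTL6B was seen in 0.330% of ectoderm and 0.526% of hPSC cells. DPF3 was seen in 0.006% of ectoderm and 0.033% of hPSC cells, beside 0.018% in ectoderm and 0.026% in hPSC for HBA1, a haemoglobin gene that neither cell type should use. Of the other 4 genes of that kind, HBB, PTPRC and ALB were seen in 0 cells of either library and CD3E in 2 ectoderm and 0 hPSC cells. DPF3 was seen in 1 ectoderm and 5 hPSC cells, with an exact interval of 0.011% to 0.077% in hPSC that holds the HBA1 share and lies partly above it, so no direction is read from it.

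Transcript length moved with the ratio across all measured genes. With genes in 10 bins of equal size by transcript length, the median log2 ratio was −0.15 in the shortest bin and 0.16 in the longest, which starts at 7878 bases, and the share of genes at 0.5 or above was 10.7% in the shortest and 20.1% in the longest. ARID1A, ARID1B, ARID2 and SMARCE1 fall in the longest bin and ACTL6A and BCL7B in the second shortest. Centred on the median of its own bin, ARID1B kept a ratio of 0.79, ARID2 of 0.72, ARID1A of 0.67, BCL7A of 0.64, SMARCC2 of 0.86 and BRD7 of 0.55. BCL11B then stood at −0.78, and ACTL6A at −0.37, which is under 0.5 in size. Gene span ran the same way, with medians of −0.12 in the shortest bin and 0.13 in the longest. GC content ran the other way, with 0.06 in the lowest bin and −0.20 in the highest. The part of RNA quality in these trends was not tested.

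**Figure D3:**
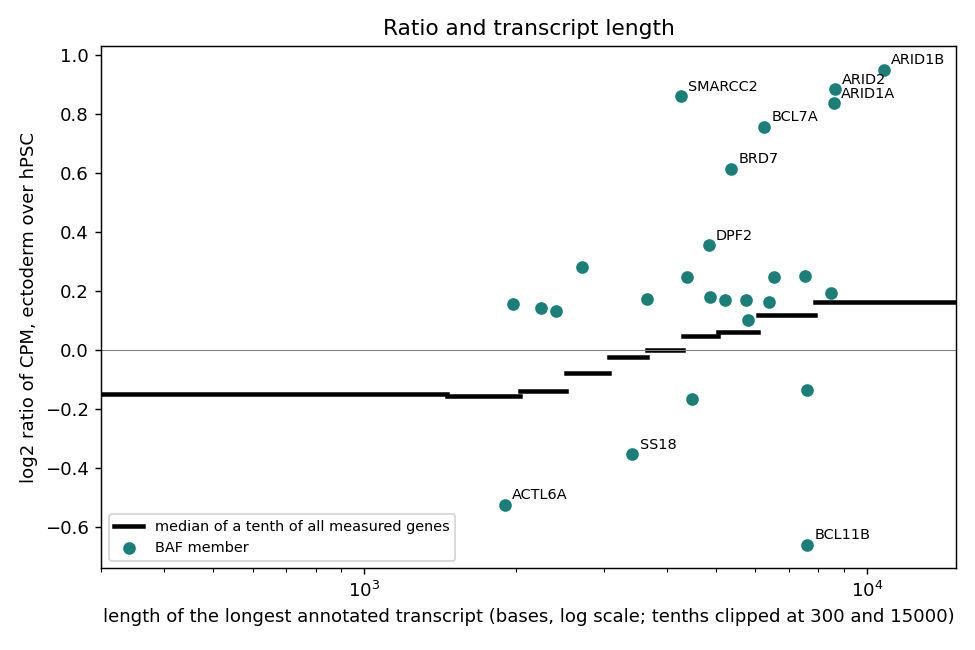
Log2 ratio of CPM, ectoderm over hPSC, against transcript length in bases on a log axis, for the measured BAF subunit genes (coloured points). Black segments give the medians of all measured genes in the 10 length bins, and single genes outside the list are not drawn. The medians of the bins run from −0.15 in the shortest bin to 0.16 in the longest, and ARID1A, ARID1B and ARID2 lie above the median of the longest bin.

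The differences held across called cell cycle phases. G1 was called for 5.01% of ectoderm and 3.93% of hPSC cells, S for 25.8% in ectoderm and 20.02% in hPSC, and G2/M for 69.2% in ectoderm and 76.1% in hPSC, with 2945 ectoderm and 2959 hPSC cells within 0.05 score units of a boundary between phases. The median G1 cell held 2868 UMIs in ectoderm and 3624.5 in hPSC. Within G1, S and G2/M the log2 ratio of ARID1B was 0.93, 0.92 and 0.96, that of ARID1A 0.91, 0.74 and 0.86, and that of ARID2 0.93, 1.04 and 0.86. SMARCC2 had ratios of 1.26, 1.01 and 0.80 in these phases. ACTL6A had −0.48, −0.41 and −0.55, and BCL11B −0.61, −0.54 and −0.70. All 8 genes past 0.5 in size therefore had the same sign in each phase, with ACTL6A under 0.5 in size in G1 and S.

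Within each library, cells were cut into 3 groups of near equal size, low, middle and high, by the neural share, which is the UMIs of 12 neural genes over those of the same genes plus 8 pluripotency genes. The groups were cut at 60% and 73.3% in ectoderm and at 7.02% and 15.2% in hPSC, so they are ranges of a score and not cell types. The score needs at least 5 such UMIs, which left out 207 ectoderm and 370 hPSC cells, and 3367 ectoderm and 4419 hPSC cells lay within 2 points of a cut. The median log2 ratio of the high over the low group was 0.04 in ectoderm and 0.08 in hPSC for the 26 measured genes, beside −0.00 in ectoderm and 0.01 in hPSC for all genes. In ectoderm 16 of the 26 ratios lay above 0, against 49.5% of all measured genes. The interval lay above 0 for 8 (15.2% of all genes) and below 0 for 3 (16.9% of all genes). In hPSC 20 of the 26 lay above 0, against 56.3% of all genes, with 9 intervals above 0 (10.7% of all genes) and 1 below 0, that of ACTL6A (7.29% of all genes). Whether an interval includes 0 depends on the count as well as on the ratio. ARID1B, ARID2, ARID1A and SMARCC2, higher in the ectoderm library, had ratios of 0.01, 0.11, 0.10 and −0.00 along the score within it. Within hPSC cells the 4 ratios were 0.24, 0.09, 0.14 and 0.08.

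Within ectoderm the 8 genes with intervals above 0 were BICRA, BCL7A, BCL7C, SMARCA4, ARID2, ARID1A, PBRM1 and ACTB, and the 3 below 0 were BCL11B, BICRAL and BCL11A. Of the 8, SMARCA4, ARID2, ARID1A, PBRM1 and ACTB had ratios of at most 0.12. BICRA stood at 11.0, 15.3 and 14.9 CPM in the low, middle and high group, a log2 ratio of high over low of 0.44 (0.22 to 0.65), and BCL7A at 37.4, 40.7 and 44.3 CPM, a ratio of 0.25 (0.13 to 0.37). The same 2 genes had ratios of 0.42 and 0.19 within hPSC. The low-level paralogues did not go one way. ACTL6B had 60, 52 and 22 UMIs in the 3 groups of ectoderm, a ratio of −1.41 (−2.19 to −0.69), and SMARCA2 had 152, 126 and 82 UMIs, a ratio of −0.85 (−1.26 to −0.46). DPF1 had 122, 105 and 86 UMIs, a ratio of −0.47 (−0.88 to −0.06). SMARCD3 was higher in the high group, with 103, 142 and 138 UMIs and a ratio of 0.46 (0.08 to 0.84). DPF3 had 3, 1 and 0 UMIs. With at least 10 UMIs for the score, the ectoderm intervals of DPF1 (−0.83 to 0.02) and SMARCD3 (−0.05 to 0.73) included 0. Within hPSC the ratios were −0.20 (−0.72 to 0.32) for ACTL6B and 0.15 (−0.24 to 0.55) for SMARCA2. Those of DPF1 and SMARCD3 there were 0.46 (−0.03 to 0.97) and 0.24 (−0.28 to 0.76). BCL11A stood at 61.4, 54.9 and 51.2 CPM across the groups of ectoderm, a ratio of −0.26 (−0.37 to −0.16), and at 57.0, 61.2 and 66.1 CPM across those of hPSC, a ratio of 0.21 (0.11 to 0.31). BCL11B stood at 19.9, 17.1 and 15.3 CPM in ectoderm, a ratio of −0.38 (−0.56 to −0.19), and at 25.03, 28.2 and 28.96 CPM in hPSC, a ratio of 0.21 (0.06 to 0.36).

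**Figure D4:**
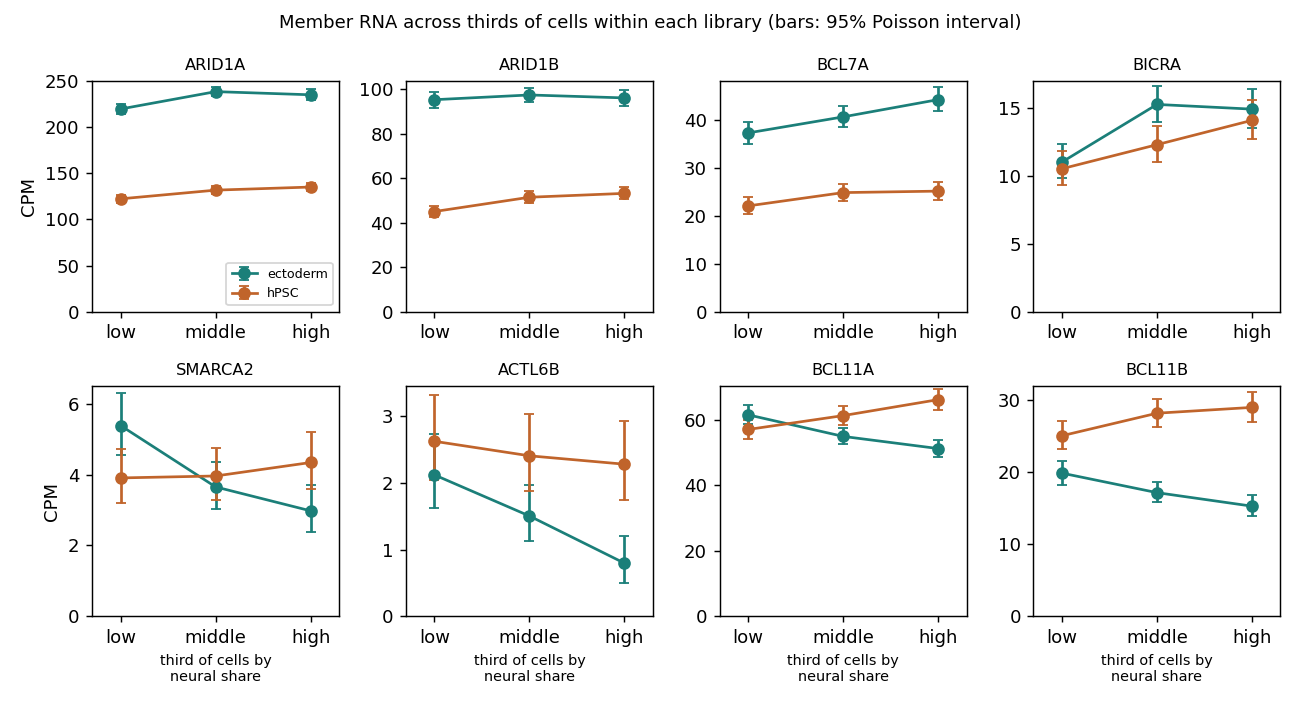
CPM of selected BAF subunit genes in the low, middle and high group of cells by neural share, for ectoderm and hPSC cells, with exact 95% Poisson intervals. BCL11A stands at 51.2 CPM in the high group of ectoderm against 61.4 CPM in the low one, and stands at 66.1 CPM in the high group of hPSC against 57.0 CPM in the low one.

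Other remodelling genes give the setting. Of 26 further genes for remodeller ATPases and some subunits of their complexes, 23 were measured, with a median log2 ratio of 0.19, 4 at 0.5 or above and 1 at −0.5 or below. CHD9, a chromodomain helicase, stood at 64.7 CPM in ectoderm against 40.4 CPM in hPSC (0.68), and BAZ1A, a subunit of the ACF complex of ISWI, at 28.8 CPM in ectoderm against 60.8 CPM in hPSC (−1.08). Of 25 subunits of the INO80, SRCAP and TIP60 complexes, 24 were measured, with a median of −0.05, 1 at 0.5 or above and 3 at −0.5 or below. RUVBL1, an AAA+ ATPase of these complexes, stood at 114 CPM in ectoderm against 181 CPM in hPSC (−0.67). The 11 genes of NuRD, the complex of histone deacetylases and CHD ATPases, had a median of 0.00, with MTA1 at 0.59 and MTA3 at 0.53 as the 2 past 0.5. MTA2, also of this list, was a guide target in the ectoderm library. Of the regulators known for the neural exchange of subunits, 6 of 8 were measured, with a median of 0.45, 2 at 0.5 or above and 0 at −0.5 or below. RCOR1 and RCOR2, corepressors that work with REST, had ratios of 0.50 and 0.37. REST, the repressor of neuronal genes that holds back miR-9* and miR-124 in non-neural cells, stood at 82.4 CPM in ectoderm against 61.2 CPM in hPSC (0.43). PTBP1, a splicing repressor that is a target of miR-124, stood at 161 CPM in ectoderm against 179 CPM in hPSC (−0.15), and its neuronal paralogue PTBP2 at 72.5 CPM in ectoderm against 52.2 CPM in hPSC (0.47). MIR124-2HG, a host transcript of miR-124, stood at 13.9 CPM in ectoderm against 5.19 CPM in hPSC (1.42), and MIR9-3HG had 7 UMIs in ectoderm and 1 in hPSC.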

How the data were processed

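Raw UMI counts for each gene and cell were deposited. The submitters' processing notes name STARsolo, STAR and GRCh38. Tool versions, the annotation release and the strand setting were not given in the sources used here. Amplicon tables, whose mismatch columns are counts made by the authors, served to find cells with a non-targeting guide (159 ectoderm, 212 hPSC, the hPSC ones from a table that may be incomplete). Cells were kept with at least 1000 UMIs, 500 genes and at most 20% mitochondrial UMIs, which removed 0 ectoderm and 7 hPSC barcodes; doublets stayed in. UMIs were summed per library and scaled to CPM, not by length, so a paralogue share compares UMIs and is read between libraries only. Ratios have exact conditional binomial, shares Clopper-Pearson and CPM Poisson 95% intervals, for counting error only. The steps were tested on simulated data: of 100 genes changed 1.5-fold 95 passed 0.5, and of 10569 unchanged genes 0. With 1 library per group the spread between libraries is unknown. These counts therefore check the steps and give no rate of false calls for the real libraries. Positions are from GENCODE v29 by Ensembl ID. Members, lists and the naming rule (all 31 subunit genes, up to 2 genes from each end of every other list) were chosen with earlier results of these data known; REST, PTBP2 and MIR9-3HG were named beyond it. Phases were called with scanpy 1.11.5 (Python 3.11.15) from 43 S and 54 G2/M genes. Genes of the neural share were left out of the totals of its groups.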

Additional observations from a re-analysis of the deposited data

Results flagged for a closer look

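BCL11A and BCL11B ran in opposite directions along the neural share in the 2 libraries. In ectoderm the log2 ratio of the high over the low group of cells was −0.264 for BCL11A and −0.378 for BCL11B, and in hPSC it was 0.214 for BCL11A and 0.210 for BCL11B. Each of these counting intervals lay on 1 side of 0. The low, middle and high groups hold different ranges of the score in each library, and whether the ratios differ between libraries was not tested. Median depth in the low and high groups was 4281 and 4240 UMIs per cell in ectoderm, and 4836 and 4655 in hPSC.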

How the results depend on the processing

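The 6 genes at 0.5 or above kept that side in all 13 alternatives, and the median over the measured subunit genes stayed above 0 in each. The count at 0.5 or above, 6 in the report, was 9 in non-targeting and in G1 cells, where 21.3% and 20.5% of all measured genes passed. With SMARCD3 added it was 7 in CPM without mitochondrial and ribosomal protein genes (15.5%) and with no minimum level (20.7%). With 1 library per group, leaving out a replicate was not possible. No paired analysis was possible because each group holds 1 library. The count at −0.5 or below, 2 in the report, was 4 in non-targeting cells (where 23.9% of all measured genes passed) and with no minimum level (25.7%). In G1 cells (18.8%) it was 3: SMARCA2, BCL11A and BCL11B, without ACTL6A. It was 1 in cells of 3000 to 6000 UMIs (14.4%) and in CPM without mitochondrial and ribosomal protein genes (14.1%). After centring on bins of transcript length (13.7%) or of gene span (13.9%) it was also 1. ACTL6A fell short of −0.5 in those settings with 1, at −0.44, −0.49, −0.37 and −0.46 in that order, and BCL11B stayed past it. The centring and the depth window were chosen after seeing the data. The count at 1 or above, 0 in the report, was 1 in non-targeting cells (DPF2), in G1 cells (SMARCC2), in the depth window and after centring on GC content (ARID1B in both). The count at −1 or below, also 0, was 1 in non-targeting cells (ACTL6A), in G1 cells (SMARCA2) and with no minimum level (DPF3). Over all cells 3.97% of all measured genes stood at 1 or above and 4.85% at −1 or below. The shares past 1 in these other settings are not given here, so no result about the subunit genes is read from these counts. In non-targeting cells 7 of 13 swaps with a value had the other sign. With SMARCD1 as the base, SMARCD3 turned to −0.58 and SMARCD2 to −0.43; BRD9 against BRD7 turned to 0.016. SMARCA2/SMARCA4, ACTL6B/ACTL6A, BCL7B/BCL7C and DPF1/DPF2, whose intervals over all cells include 0, turned to 1.43, 0.36, −0.11 and −0.72. In G1 cells SMARCD2/SMARCD1 turned to −0.22 and DPF1/DPF2 to −0.63, and in the depth window BCL7B/BCL7C had the other sign. All intervals of the turned swaps include 0, and the cause was not tested. The sums of canonical BAF and PBAF moved to 0.78 and 0.57 in the depth window and to 0.77 and 0.55 without mitochondrial and ribosomal protein genes. That scaling moved the sum of progenitor subunits to −0.063, and G1 cells turned it to 0.11 and the neuronal sum to 0.081. Depth limits SMARCA2, SMARCD3, ACTL6B, DPF1 and DPF3, with at most 386 UMIs in ectoderm and at most 339 in hPSC.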
